A study of Mus musculus with 6 samples.

Results

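The 9 genes described here are 5 gasdermins (Gsdmc, Gsdmc2, Gsdmc3, Gsdmc4 and Gsdmd) and 4 genes of the necroptosis pathway (Ripk1, Ripk3, Mlkl and Casp8), chosen by symbol from a bulk RNA sequencing table of 21374 genes. All 9 were in the table and all 9 passed the filter on low values. The tissue was distal colon next to tumours, with the tumours cut away, from C57BL/6 male mice. Every animal was given the colon carcinogen azoxymethane at 6 weeks of age (day 0), then 3 cycles of dextran sulfate sodium at 1.5% for 4 days, which injures the colonic epithelium, each followed by 14 days of water. Colon was collected on day 81, at 18 weeks. By label, 3 libraries are wild type and 3 are Otud1-/-, so both groups carry the same carcinogen and colitis treatment and no untreated colon was measured here. The labels do not say how the Otud1 allele was made, nor whether each library is a separate animal. P-values here are therefore set against library-to-library spread, part of which may be technical.

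The libraries held 15300937 to 19406407 reads assigned to genes. Values are normalised reads, the reads of a gene divided by the size factor of its library. Otud1, which encodes a deubiquitinase, had 110.8, 45.1 and 48.9 normalised reads in the wild type-labelled libraries and 141, 150 and 208 in those labelled Otud1-/-. The targeted gene was thus higher, not lower, under the Otud1-/- label (log2 change 1.37 with an SE of 0.35, limma adjusted p = 0.0934, and exact two-sided permutation p = 0.1, the smallest that 3 against 3 allows). The deleted part of the gene is not given in the sources used here, so a gene-level value does not settle the label, and every direction below is by label. The 15 colon epithelium markers, led by Krt8 and Lgals4, were all in the table and summed to 484077 to 573896 normalised reads in the wild type-labelled libraries and 311351 to 460043 in those labelled Otud1-/-. Of 11 keratinocyte and squamous markers, 7 were in the table, without Krt1, Ivl, Sprr1b or Trp63. In bulk tissue, fewer cells of a type and less RNA per cell cannot be told apart.

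Gasdermins are held inactive until a protease separates the pore-forming amino-terminal part from the inhibitory carboxy-terminal part, after which pores open in the plasma membrane and the cell can die by pyroptosis. Necroptosis runs through RIPK1 and RIPK3, kinases that join through their RIP homotypic interaction motifs, and RIPK3 phosphorylates MLKL, which then permeabilises the membrane. Caspase 8 cuts RIPK1 and RIPK3 and so holds necroptosis back in the intestinal epithelium, and it is also among the proteases reported to cut gasdermins. Gasdermin C genes are expressed by intestinal epithelial cells and are known to respond to the type 2 cytokines IL-4 and IL-13, whereas gasdermin D is cut by the inflammatory caspases.

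The 4 gasdermin C genes lie side by side on the minus strand of chromosome 15 (GRCm38): Gsdmc at chr15:63775968-63808759, Gsdmc2 at chr15:63824346-63845177, Gsdmc3 at chr15:63857724-63878558 and Gsdmc4 at chr15:63891264-63912297. Their coding sequences are close enough for reads to be shared: 97.1% identical between Gsdmc2 and Gsdmc3, 93.5% between Gsdmc2 and Gsdmc4 and 93.5% between Gsdmc3 and Gsdmc4, against 85.9% to 87.1% between Gsdmc and the others and 47.0% to 48.3% with Gsdmd. Of 1437 aligned coding positions of Gsdmc2, Gsdmc3 and Gsdmc4, 113 (7.86%) differ. The first 60 coding bases are shown because they are the same in all 3 genes, so that a read of 60 bases inside them fits each equally well. They lie at chr15:63835884-63835943 in Gsdmc2, chr15:63869238-63869297 in Gsdmc3 and chr15:63902871-63902930 in Gsdmc4, and the letters are read from the minus strand of GRCm38.
Gsdmc2, Gsdmc3 and Gsdmc4: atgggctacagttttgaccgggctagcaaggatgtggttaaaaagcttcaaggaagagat

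The stretch of the same length with the most differences holds 15 differing positions, in capitals below, and shows where reads can be told apart. It lies in an exon at chr15:63826868-63826927 in Gsdmc2, chr15:63860298-63860357 in Gsdmc3 and chr15:63893815-63893874 in Gsdmc4, and again the minus strand is printed.
Gsdmc2: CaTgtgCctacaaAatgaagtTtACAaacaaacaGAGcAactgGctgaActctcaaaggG
Gsdmc3: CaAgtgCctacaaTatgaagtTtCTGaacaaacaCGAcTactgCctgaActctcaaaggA
Gsdmc4: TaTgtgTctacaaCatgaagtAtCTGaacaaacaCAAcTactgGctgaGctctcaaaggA

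Over whole transcripts, 51.3% of the 50-base windows of Gsdmc2 were found in another gene, as were 46.0% of those of Gsdmc3, 39% of Gsdmc4 and 16.1% of Gsdmc, and all of these partners were gasdermin C genes. At 150 bases the shares were 14.9%, 18.0%, 8.83% and 2.95%. No window of Gsdmd, Ripk3 or Mlkl was shared at these lengths. Casp8 shared 4.37% of its 50-base windows with the predicted gene Gm20257 and 0 at 150 bases. In Ripk1, 6.12% of exon bases overlap the pseudogene Gm17084 on the same strand and 2.89% overlap Serpinb6a on the opposite strand. How the authors' counting treated shared reads or strand is not given in the sources used here, so the split of reads among Gsdmc2, Gsdmc3 and Gsdmc4 is uncertain and their sum is given beside each of them.

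Ripk3 fell in the libraries labelled Otud1-/-, to 0.427 of its level in the wild type-labelled libraries, and was the only one of the 9 genes past limma's threshold. Over all 21281 genes tested, 0.949% passed it in either direction and 0.667% were lower. The other necroptosis genes and Gsdmd had lower means in the libraries labelled Otud1-/-, and the gasdermin C genes had higher means with a wide spread among those 3 libraries. Values did not overlap between labels for 4 genes that were lower (Gsdmd, Ripk1, Ripk3 and Casp8), beside 13.3% of all genes, and for 1 that was higher (Gsdmc3), beside 13.0%. With limma, 5 of the 9 had an unadjusted p under 0.05, beside 19.5% of all genes. Count tests on the recovered reads, in which Gsdmc got no adjusted p, called 1 of 8 with edgeR (Ripk3, where 0.370% of genes were called) and 3 of 8 with DESeq2 (Ripk3, Gsdmd and Gsdmc3, where 8.40% were called). The median log2 change of the 9 was -0.20, against 0.017 over all genes tested. Scaling each library to the epithelium list in place of the deposited scaling moved the median of all genes to 0.52, so a value under that scaling is to be read against 0.52 rather than against 0.

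**Figure D1:**
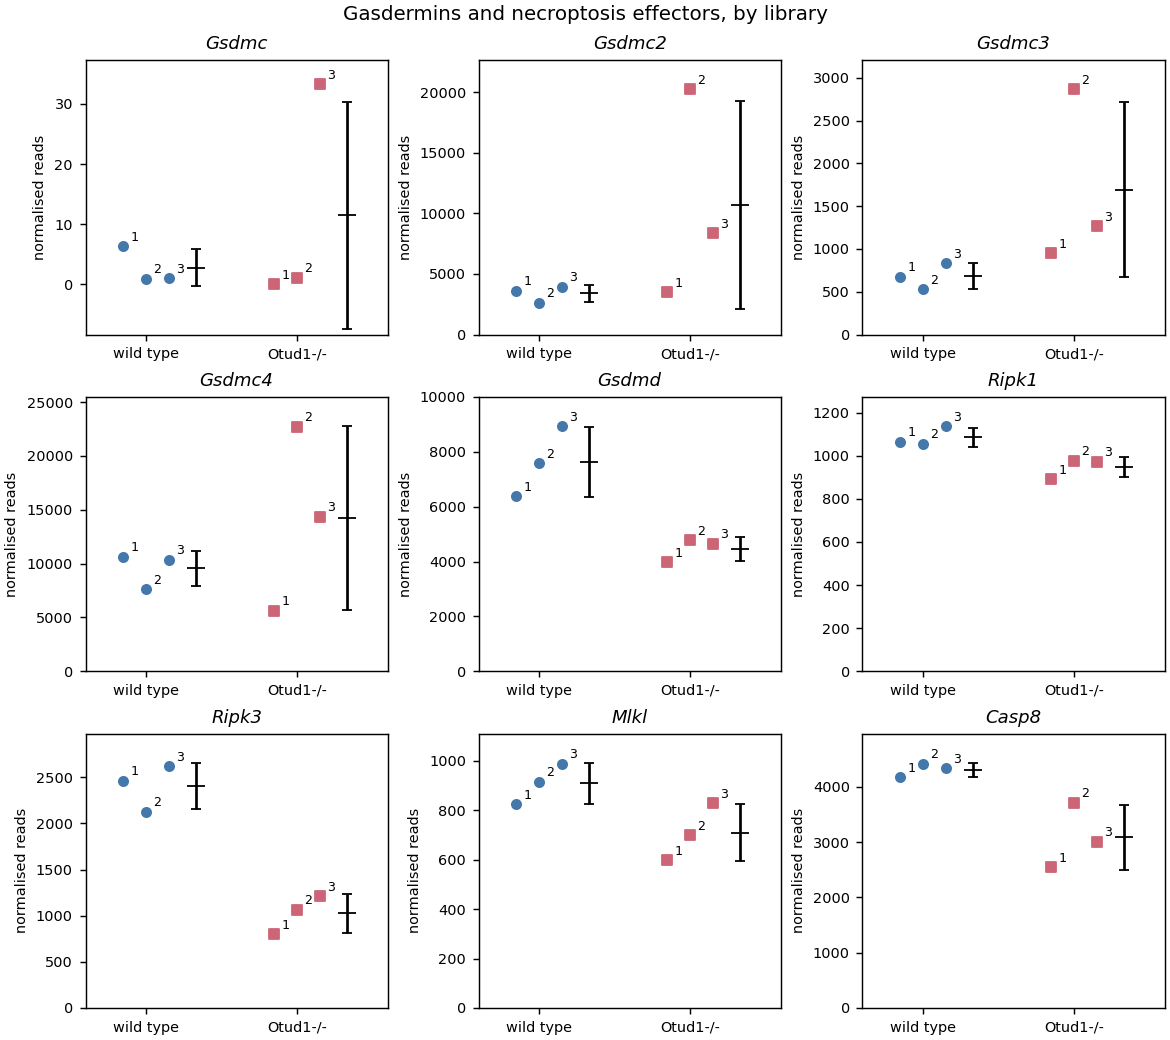
Normalised reads (vertical axis, linear, a separate scale in each panel) of the 9 genes in 3 libraries labelled wild type (blue circles) and 3 labelled Otud1-/- (red squares), with library numbers beside the points and black bars for the mean and SD. Ripk3 lies between 2129 and 2622 in the wild type-labelled libraries and between 799 and 1214 in those labelled Otud1-/-, while Gsdmc2 spans 3504 to 20244 within the libraries labelled Otud1-/-.

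Gsdmc4, the most abundant of the gasdermin C genes, had 10630, 7637 and 10365 normalised reads in the wild type-labelled libraries and 5624, 22697 and 14342 in those labelled Otud1-/-. One library labelled Otud1-/- was below all the libraries labelled wild type and the others were above them, so the groups overlapped (9544 ± 1657 and 14221 ± 8537, SD, n = 3, log2 change 0.37 ± 0.53, limma adjusted p = 0.747). Without the library labelled Otud1-/- 2 the change of Gsdmc4 was -0.072. Gsdmc2 had 3603, 2636 and 3965 normalised reads in the wild type-labelled libraries and 3504, 20244 and 8366 in those labelled Otud1-/-. The libraries labelled Otud1-/- 2 and 3 were above every library labelled wild type and library 1 lay among them (log2 change 1.33 ± 0.67, limma adjusted p = 0.353). Without the library labelled Otud1-/- 2 the change of Gsdmc2 was 0.69, and without library 1 it was 1.96.

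Gsdmc3 had 677, 528 and 834 normalised reads in the wild type-labelled libraries and 952, 2864 and 1265 in those labelled Otud1-/-. All 3 libraries labelled Otud1-/- were higher, without overlap, but limma did not call it (log2 change 1.18 ± 0.44, adjusted p = 0.228). DESeq2 gave Gsdmc3 an adjusted p of 0.0083 and edgeR 0.126, and without the library labelled Otud1-/- 2 limma's change was 0.72. Gsdmc itself was close to absent, with 6, 1 and 1 recovered reads in the wild type-labelled libraries and 0, 1 and 33 in those labelled Otud1-/-. Library 3 alone held most of these reads, and no fold is given for Gsdmc.

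The sum of the 4 gasdermin C genes does not depend on how reads were split among them, provided that each shared read was counted once. Whether that was so is not known. The sum was 14917, 10802 and 15165 normalised reads in the wild type-labelled libraries and 10079, 45806 and 24007 in those labelled Otud1-/-. Libraries 2 and 3 labelled Otud1-/- were above all those labelled wild type and library 1 was below them. The sum did not differ beyond the spread between libraries (log2 change 0.73 ± 0.56, limma adjusted p = 0.533, exact two-sided permutation p = 0.4). Without the library labelled Otud1-/- 1 the change of the sum was 1.30 (limma adjusted p = 0.124), and without library 2 it was 0.21.

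The markers of differentiated colonocytes, the absorptive cells at the colonic surface, varied between libraries in the same order as the gasdermin C sum among the libraries labelled Otud1-/-. All 10 of these markers were in the table, led by Ceacam1 and Car4, and they summed to 129665, 98184 and 122634 normalised reads in the wild type-labelled libraries and to 37728, 145683 and 85265 in those labelled Otud1-/-. Set against that sum, the 4 gasdermin C genes gave 115, 110.0 and 124 normalised reads per 1000 of the list in the wild type-labelled libraries and 267, 314 and 282 in those labelled Otud1-/-, and the groups did not overlap. For Gsdmc4 alone the values were 82.0, 77.8 and 84.5 per 1000 against 149, 156 and 168. For Gsdmc2 they were 27.8, 26.9 and 32.3 per 1000 against 92.9, 139 and 98.1. These ratios were chosen after the values were seen and carry no test, and Ceacam1 alone made up 39.2% to 57.9% of the list. The 10 markers did not move alike: 7 had negative log2 changes and 3 positive ones (Cyp2c55 at 3.72, without overlap, Guca2a at 1.29 and Alpi at 0.78). Against Guca2a alone, which encodes the colonocyte peptide guanylin, the Gsdmc2 ratio overlapped. It was 0.856, 1.04 and 0.863 in the wild type-labelled libraries and 0.885, 0.926 and 1.01 in those labelled Otud1-/-. Guca2a was among the genes most correlated with Gsdmc2 over these same libraries (r = 0.994), so a flat ratio between them was built in. The ratio of the gasdermin C sum to Guca2a was lower in the libraries labelled Otud1-/-, at 3.54, 4.26 and 3.30 against 2.55, 2.09 and 2.89, so the direction depended on the marker chosen. Per 1000 normalised reads of the epithelium list, the gasdermin C sum was 27.5, 22.3 and 26.4 in the wild type-labelled libraries and 32.4, 99.6 and 67.8 in those labelled Otud1-/-. The part of colonocyte content in the spread of the gasdermin C genes was not tested.

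**Figure D2:**
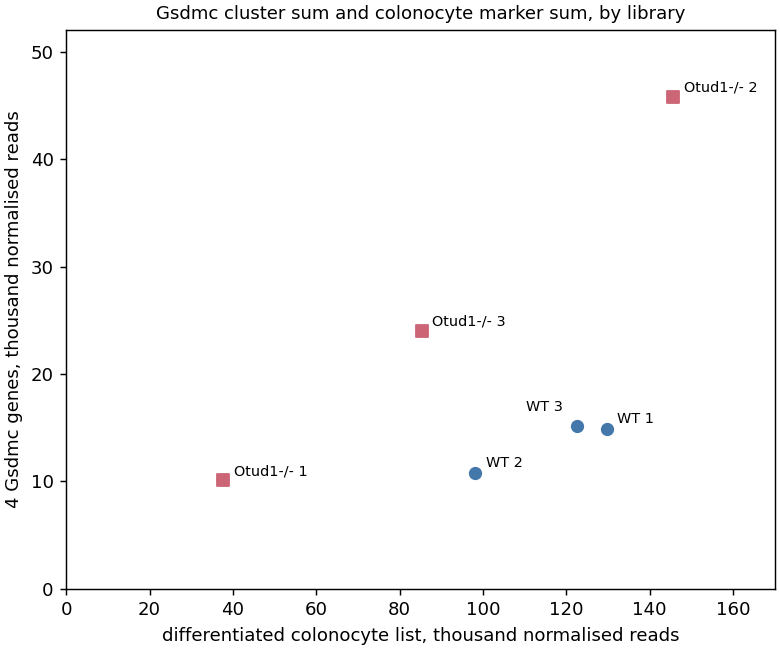
Sum of the 4 gasdermin C genes (vertical axis) against the sum of 10 differentiated colonocyte markers (horizontal axis), both in units of 1000 normalised reads, for 3 libraries labelled wild type (WT, blue circles) and 3 labelled Otud1-/- (red squares). The library labelled Otud1-/- 1 is lowest on both axes and library 2 is highest on both, and each library labelled Otud1-/- has 267 to 314 gasdermin C reads per 1000 of the list, against 110.0 to 124 in the wild type-labelled libraries.

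The make-up of the cluster also differed by label. Gsdmc2 took 24.2%, 24.4% and 26.1% of the reads of the 4 genes in the wild type-labelled libraries and 34.8%, 44.2% and 34.8% in those labelled Otud1-/-, which did not overlap (24.9% ± 1.08 and 37.9% ± 5.42, SD, n = 3). Gsdmc4 took the smaller share in exchange, at 71.3%, 70.7% and 68.4% against 55.8%, 49.5% and 59.7%. The share of Gsdmc3 was 4.54%, 4.88% and 5.50% against 9.44%, 6.25% and 5.27%, and overlapped. The Gsdmc2 to Gsdmc4 ratio, in which the scaling of a library cancels, was 0.339, 0.345 and 0.382 in the wild type-labelled libraries and 0.623, 0.892 and 0.583 in those labelled Otud1-/-. All 3 libraries labelled Otud1-/- were higher, including library 1, where both genes were at their lowest among those 3. Whether reads that fit more than 1 of these genes were counted is not known, so these values may include them. The Gsdmc2 to Gsdmc4 ratio was chosen after values were seen, and no p-value is given for it or the shares.

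**Figure D3:**
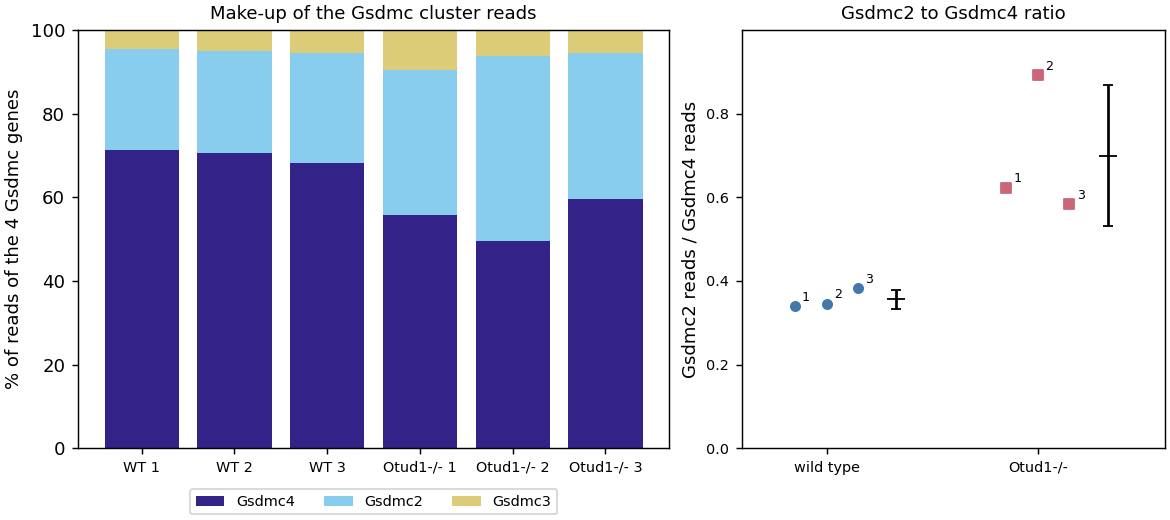
Left, percent of the reads of the 4 gasdermin C genes taken by Gsdmc4, Gsdmc2 and Gsdmc3 in each library (Gsdmc, at most 0.139%, is not drawn); right, reads of Gsdmc2 divided by reads of Gsdmc4, with the mean and SD in black. The Gsdmc2 share is 24.2% to 26.1% in the wild type-labelled libraries (WT) and 34.8% to 44.2% in those labelled Otud1-/-.

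Gsdmd, on the plus strand at chr15:75862327-75867408, had 6385, 7588 and 8933 normalised reads in the wild type-labelled libraries and 3965, 4773 and 4653 in those labelled Otud1-/-. All 3 libraries labelled Otud1-/- were below the lowest labelled wild type (7635 ± 1275 and 4464 ± 436, SD, n = 3). The log2 change of -0.77 ± 0.15 narrowly missed limma's threshold (adjusted p = 0.0519), as it did with edgeR (adjusted p = 0.0719), and DESeq2 called it (adjusted p = 0.00088). Limma called Gsdmd without the library labelled Otud1-/- 2 (adjusted p = 0.0497), without both libraries numbered 1 (0.0261) and with sample weights (0.0252). Scaled to the epithelium list, its log2 change was -0.24 (limma adjusted p = 0.287). Of 12 macrophage and monocyte markers, all in the table and led by Lyz2 and Cd14, 8 were lower without overlap, beside 13.3% of all genes. Their sum was 15557 to 19154 normalised reads in the wild type-labelled libraries and 10213 to 11205 in those labelled Otud1-/-. Per 1000 normalised reads of that list Gsdmd stood at 338, 396 and 574 against 388, 426 and 445, and per 1000 of the epithelium list at 11.7, 15.7 and 15.6 against 12.7, 10.4 and 13.1, so that both ratios overlapped. The part of either cell population in the Gsdmd values was not tested.

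Of 7 proteases that cut gasdermins and were tested (2 more listed genes were not in the table), limma called 0. Of the 7, 3 had an unadjusted p under 0.05 with limma, beside 19.5% of all genes. With edgeR 0 of the 7 were called and with DESeq2 1, beside 8.40% of all genes with DESeq2. Their median log2 change was -0.49, and 0.025 after scaling to the epithelium list (all genes 0.52). The inflammatory caspases Casp4 and Casp1, which cut gasdermin D, had log2 changes of -0.60 ± 0.19 and -0.58 ± 0.19 (limma adjusted p = 0.142 and 0.149). Of the 7, 3 were lower without overlap, Casp4 and Casp1 among them, and 1 was higher without overlap. Over all genes the shares lower and higher without overlap were 13.3% and 13.0%.

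Of 4 other gasdermins tested, limma called 0, and 0 had an unadjusted p under 0.05. Gsdma2 got no adjusted p from edgeR or DESeq2, which each called 0 of the remaining 3. Gsdmcl2, a gasdermin C pseudogene of the same cluster, followed the pattern of its neighbours, with 1640, 1238 and 1709 normalised reads in the wild type-labelled libraries and 1138, 4853 and 2358 in those labelled Otud1-/-. Gsdme, the gasdermin cut by caspase 3, had 251, 227 and 238 against 234, 234 and 264, and the groups overlapped. Gsdma, a gasdermin of skin and other squamous epithelia, had 20.04, 110.0 and 122 against 673, 162 and 120.1, also with overlap. The library labelled Otud1-/- 1 was highest for Gsdma and also had the highest sum of the squamous markers, 1675 normalised reads against 155 to 580 in the wild type-labelled libraries. Whether squamous tissue supplied those Gsdma reads was not tested. Gsdma2 had at most 15.4 normalised reads in any library.

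The 13 genes for membrane rupture and repair, which include Ninj1 and the ESCRT-III proteins that remove damaged membrane, gave 0 calls with limma. With limma 8 had an unadjusted p under 0.05 (beside 19.5% of all genes). Calls numbered 0 with edgeR and 1 with DESeq2, which called 8.40% of all genes. All 13 log2 changes were negative with the deposited scaling, 9 of them without overlap (beside 13.3% of all genes), at a median of -0.35. After scaling to the epithelium list 12 of 13 were positive, at a median of 0.17 that lay below the 0.52 of all genes. The smallest p was that of Chmp1b, an ESCRT-III subunit (log2 change -0.53 ± 0.12, limma adjusted p = 0.0777). Chmp2b, another subunit, and Vps4b, the ATPase that takes the filament apart, had log2 changes of -0.41 ± 0.12 and -0.31 ± 0.10 (limma adjusted p = 0.124 and 0.14).

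Ripk3, the kinase that commits a cell to necroptosis, lies on the minus strand at chr14:55784995-55788865. It had 2464, 2129 and 2622 normalised reads in the wild type-labelled libraries and 799, 1066 and 1214 in those labelled Otud1-/-. The highest of the libraries labelled Otud1-/- was well below the lowest labelled wild type. Ripk3 fell by 1.24 ± 0.16 on the log2 scale (2405 ± 251 to 1026 ± 211, SD, n = 3, limma adjusted p = 0.0163). The adjusted p was 0.0433 with edgeR and 2.39e-07 with DESeq2. The change stayed between -1.38 and -1.07 when any 1 library was left out, and was -1.05 (limma adjusted p = 0.0045) without both libraries numbered 1. Leaving out any 1 of the libraries labelled wild type ended limma's call (adjusted p = 0.0724, 0.0703 and 0.12 without 1, 2 and 3).

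The fall of Ripk3 was also visible against other genes of the same library, where the scaling cancels. The Ripk3 to Ripk1 ratio of normalised reads was 2.32, 2.02 and 2.31 in the wild type-labelled libraries and 0.896, 1.09 and 1.25 in those labelled Otud1-/-. The Ripk3 to Mlkl ratio was 2.99, 2.33 and 2.65 against 1.34, 1.52 and 1.46. The Ripk3 to Casp8 ratio was 0.59, 0.482 and 0.606 against 0.314, 0.288 and 0.404. None of the 3 ratios overlapped between labels, and they were chosen after the values of Ripk3 were seen and carry no test.

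**Figure D4:**
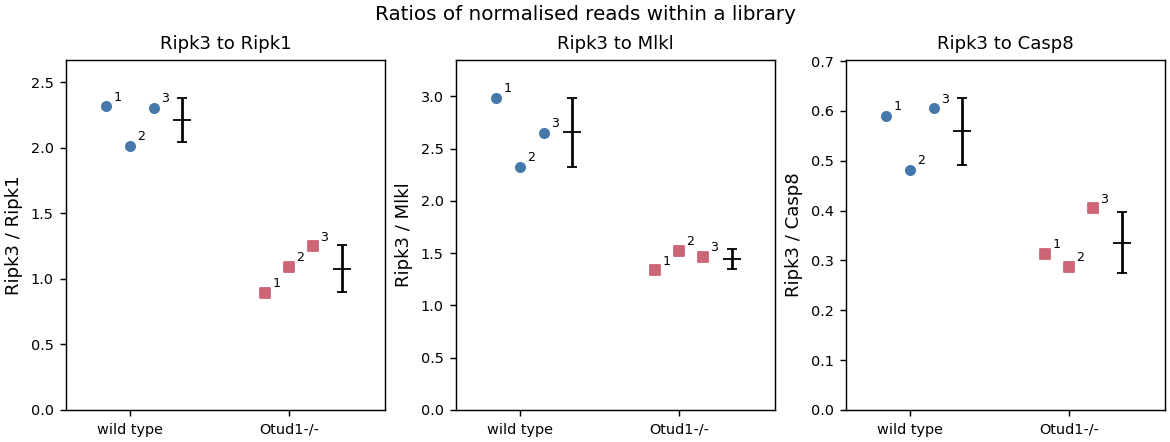
Normalised reads of Ripk3 divided by those of Ripk1 (left), Mlkl (middle) and Casp8 (right) in the same library, on linear axes that start at 0, for 3 libraries labelled wild type (blue circles) and 3 labelled Otud1-/- (red squares), with the mean and SD in black. In each panel the 3 libraries labelled Otud1-/- lie below all 3 labelled wild type, for example 0.896 to 1.25 against 2.02 to 2.32 for Ripk3 to Ripk1.

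The sums of the epithelium and macrophage marker lists were lower in the libraries labelled Otud1-/- as well, while those of T and NK cells (486 to 1374 and 379 to 709 normalised reads) and of B and plasma cells (31240 to 50902 and 21296 to 32017) overlapped. The neutrophil sum, led by Ly6g, was 7296 to 10137 against 3180 to 3787, although 5 of its 8 markers had positive log2 changes. Per 1000 normalised reads of the epithelium list, Ripk3 stood at 4.53, 4.40 and 4.57 in the wild type-labelled libraries and at 2.57, 2.32 and 3.43 in those labelled Otud1-/-, with no overlap. Scaled to that list, Ripk3 was still called (log2 change -0.72, limma adjusted p = 0.0204). Per 1000 of the macrophage and monocyte list it stood at 130.5, 111 and 169 against 78.2, 95.2 and 116, where the groups overlapped. The part of macrophage content in the Ripk3 values was not tested further. Smooth muscle markers, led by Myh11 and Des, moved the other way, from 40686 to 44991 normalised reads in the wild type-labelled libraries to 66163 to 133941 in those labelled Otud1-/-. The goblet cell sum, led by Muc2, was lower without overlap, at 245463 to 263664 and 95162 to 110658. Ripk3 was not set against the goblet or neutrophil list, and the part of those cells in its values was not tested.

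Casp8, the protease that restrains RIPK1 and RIPK3, lies at chr1:58795374-58847503 and had 4173, 4417 and 4330 normalised reads in the wild type-labelled libraries and 2547, 3709 and 3003 in those labelled Otud1-/-. The groups did not overlap, and limma did not call it (log2 change -0.50 ± 0.14, adjusted p = 0.117; without the library labelled Otud1-/- 2 it was 0.0479). Per 1000 normalised reads of the epithelium list Casp8 was at 7.68, 9.12 and 7.54 against 8.18, 8.06 and 8.49, with overlap.

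Mlkl, whose product opens the membrane, lies at chr8:111311797-111338177 and had 825, 915 and 989 normalised reads in the wild type-labelled libraries and 598, 700 and 830 in those labelled Otud1-/-. The highest library labelled Otud1-/- just passed the lowest labelled wild type, and limma did not call the change (-0.37 ± 0.14 on the log2 scale, adjusted p = 0.209).

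Ripk1, the upstream kinase and scaffold, lies at chr13:34002363-34037147 and had the smallest log2 change of the 9, with 1064, 1056 and 1137 normalised reads in the wild type-labelled libraries and 892, 976 and 973 in those labelled Otud1-/-. The values did not overlap but the difference was small (log2 change -0.20 ± 0.10, limma adjusted p = 0.336) and its sign depended on scaling. Scaling to total reads moved the median log2 change of all genes to 0.22 and that of Ripk1 to 0.011. Scaling to the epithelium list gave Ripk1, Mlkl and Casp8 log2 changes of 0.32, 0.15 and 0.025, all below the 0.52 of all genes.

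**Figure D5:**
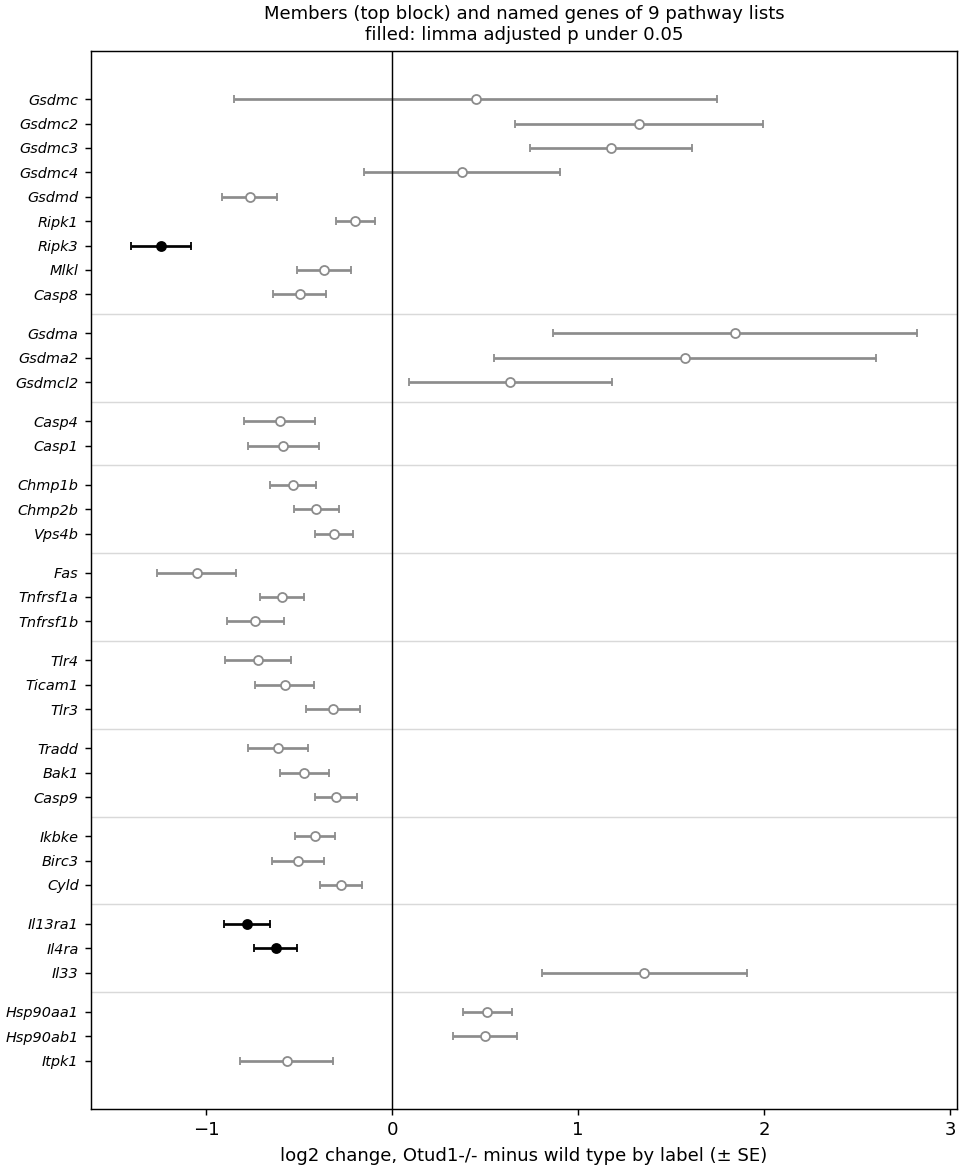
Log2 change of normalised reads in the libraries labelled Otud1-/- against those labelled wild type (horizontal axis, points with limma's SE, n = 3 per label) for the 9 genes (top block) and for named genes of 9 pathway lists, in blocks. Filled points passed limma's adjusted p threshold of 0.05: Ripk3 at -1.24, Il13ra1 at -0.78 and Il4ra at -0.63.

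Among 8 death ligands and receptors, which start the signal to RIPK1, 0 were called by limma. Of the 8, 3 had an unadjusted p under 0.05 with limma, beside 19.5% of all genes. Calls were 0 of 7 with edgeR and 3 of 7 with DESeq2, which called 8.40% of all genes. The median log2 change of the 8 was -0.27 (0.25 after scaling to the epithelium list, all genes 0.52). The death receptor Fas had 406, 349 and 372 normalised reads in the wild type-labelled libraries and 131, 207 and 218 in those labelled Otud1-/- (log2 change -1.05 ± 0.21, limma adjusted p = 0.0551). Both TNF receptors were also lower without overlap, with log2 changes of -0.59 ± 0.12 for Tnfrsf1a, the receptor that recruits RIPK1, and -0.74 ± 0.15 for Tnfrsf1b (limma adjusted p = 0.0552 and 0.0601). Of the 8, 3 were lower without overlap (Fas and both TNF receptors) and 1 other receptor was higher without overlap. The shares of all genes lower and higher without overlap were 13.3% and 13.0%. Tnf itself overlapped, with 211, 327 and 349 against 507, 229 and 152.

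The 6 other RIP homotypic proteins and nucleic acid sensors, the route to RIPK3 that bypasses death receptors, gave 0 calls with limma. Of the 6, 2 had an unadjusted p under 0.05 with limma, beside 19.5% of all genes. Calls numbered 0 with edgeR and 1 with DESeq2, which called 8.40% of all genes. The median log2 change was -0.45 (0.074 after scaling to the epithelium list, all genes 0.52). Tlr4, the lipopolysaccharide receptor, and Ticam1, the adaptor TRIF, had log2 changes of -0.72 ± 0.18 and -0.58 ± 0.16 (limma adjusted p = 0.0858 and 0.109), and Tlr3, the double-stranded RNA receptor, -0.32 ± 0.14 (0.263). Zbp1, the sensor that binds RIPK3, had 3221, 3676 and 3725 normalised reads in the wild type-labelled libraries and 1427, 3382 and 2564 in those labelled Otud1-/-.

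Of 7 death receptor adaptors and caspase 8 regulators, limma called 0 (3 at an unadjusted p under 0.05, beside 19.5% of all genes). Calls numbered 0 with edgeR and 1 with DESeq2, which called 8.40% of all genes. The median log2 change of the 7 was -0.16 (0.36 after scaling to the epithelium list, all genes 0.52). Tradd, the TNF receptor adaptor, Bak1, a mitochondrial pore protein, and Casp9, the apoptosome caspase, had log2 changes of -0.61 ± 0.16, -0.47 ± 0.13 and -0.30 ± 0.11 (limma adjusted p = 0.0957, 0.11 and 0.197). The caspase 8 regulator Cflar overlapped, with 1481, 1439 and 1254 normalised reads against 1146, 1422 and 1191.

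The 22 ubiquitin and kinase checkpoints on RIPK1, a list that includes Otud1, gave 0 calls with limma. Of the 22, 4 had an unadjusted p under 0.05 with limma, near the 19.5% of all genes, and 1 of the 4 was Otud1. Calls numbered 0 with edgeR and 2 with DESeq2, which called 8.40% of all genes, and 1 of the 2 was again Otud1. The median log2 change was -0.12 (0.40 after scaling to the epithelium list, all genes 0.52). Ikbke, a kinase that phosphorylates RIPK1, had a log2 change of -0.41 ± 0.11, Birc3, a ubiquitin ligase, -0.51 ± 0.14, and Cyld, a deubiquitinase, -0.28 ± 0.11 (limma adjusted p = 0.0943, 0.108 and 0.223).

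In the type 2 cytokine axis limma called 2 of 8 tested genes, both lower, beside 0.667% of all genes called lower. These were limma's only calls among these 9 pathway lists. Calls numbered 0 with edgeR. DESeq2 called 2 lower and 1 higher (Il33), and called 8.40% of all genes. Of the 8, 3 had an unadjusted p under 0.05 with limma, beside 19.5% of all genes. Il13ra1, a chain of the IL-13 receptor, had 2900, 3193 and 2729 normalised reads in the wild type-labelled libraries and 1717, 1527 and 1902 in those labelled Otud1-/- and fell by 0.78 ± 0.12 on the log2 scale (limma adjusted p = 0.0318). Il4ra, the chain shared by the IL-4 and IL-13 receptors, had 3432, 3261 and 2788 against 2015, 2116 and 1990 and fell by 0.63 ± 0.12 (limma adjusted p = 0.0467). Neither receptor overlapped between labels, and the calls of Il13ra1 and Il4ra held in 11 and 7 of 20 alternative settings. Both calls ended with edgeR (adjusted p = 0.0528 for Il13ra1 and 0.0652 for Il4ra), with the replicate block (0.14 and 0.156), without trend and robust (0.165 and 0.187), with quantile normalisation (0.0861 and 0.131), with scaling to total reads (0.0655 and 0.0993) or to the epithelium list (0.336 and 0.686), and without any 1 of the wild type-labelled libraries (limma adjusted p from 0.113 to 0.132 and from 0.12 to 0.169). The call of Il4ra also ended with a filter at a mean of 5 (0.0549), with a pseudocount of 0.1 (0.0513), without the library labelled Otud1-/- 3 (0.103) and without both libraries numbered 1 (0.0874). Il33, an alarmin that drives type 2 responses, was higher without overlap, at 41.1, 76.2 and 118 against 393, 125 and 130.2 (limma adjusted p = 0.243, DESeq2 adjusted p = 0.0381). Of the 8, 2 were lower and 1 was higher without overlap, beside 13.3% and 13.0% of all genes. Il13 and Il25 were not in the table. The median of the 8 was -0.17, and 0.35 after scaling to the epithelium list (all genes 0.52).

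The 9 MLKL partners gave 0 calls with limma (2 at an unadjusted p under 0.05, near the 19.5% of all genes). Calls numbered 0 with edgeR and 1 with DESeq2, which called 8.40% of all genes. The median log2 change was -0.058 (0.46 after scaling to the epithelium list, all genes 0.52). The HSP90 chaperones, which MLKL and RIPK3 need for stability, were higher without overlap: Hsp90aa1 by 0.51 ± 0.13 and Hsp90ab1 by 0.50 ± 0.17 on the log2 scale (limma adjusted p = 0.0974 and 0.164). These were the only 2 of the 9 higher without overlap, beside 13.0% of all genes, and 0 of the 9 were lower without overlap. Itpk1, an inositol phosphate kinase needed for MLKL activation, overlapped, at -0.57 ± 0.25 (limma adjusted p = 0.265).

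Per kilobase of exon, which allows a rough comparison of levels between genes, Gsdmc4 was the highest of the 9 in the wild type-labelled libraries at 4573 ± 794 normalised reads per kilobase (SD, n = 3), followed by Gsdmd at 3212 ± 536. Casp8 (1489 ± 42.7) and Gsdmc2 (1469 ± 297) did not differ beyond their spread, and Ripk3 followed at 1049 ± 109.7. Lower still were Mlkl at 395 ± 35.7, Gsdmc3 at 292 ± 65.8 and Ripk1 at 130.1 ± 5.33, and Gsdmc was at most 2.63 per kilobase. In the libraries labelled Otud1-/- the means of Gsdmc4 (6814 ± 4091) and Gsdmc2 (4624 ± 3720) stood above Gsdmd (1878 ± 184). Their SDs overlapped, but Gsdmc4 was above Gsdmc2 within each of these libraries (2695, 10875 and 6872 against 1514, 8745 and 3614). The place of Gsdmc2 above Gsdmd rested on libraries 2 and 3. In the library labelled Otud1-/- 1 Gsdmc2 was at 1514 per kilobase, below Gsdmd at 1668, and without library 2 its mean was 2564. Ripk3 was at 448 ± 91.8, below Gsdmc3 at 728 ± 441. The places of Gsdmc2, Gsdmc3 and Gsdmc4 depend on how shared reads were counted, which is not known. The divisor was the union of all annotated exons of a gene, 8344 bases for Ripk1 and 2087 for Gsdmc4, so these levels also depend on the annotation.

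Across the 6 libraries, log2 values of Ripk1, Ripk3, Gsdmd, Mlkl and Casp8 were correlated with each other (Pearson's r from 0.786 to 0.964), and those of Gsdmc2, Gsdmc3 and Gsdmc4 with each other (0.775 to 0.969). These values share library and scaling and, in the second set, perhaps reads, and are a description only. Among 12364 genes with a mean of at least 50 normalised reads, those most like Ripk3 over the 6 libraries were Prr13 (r = 0.998), Tmem9b (0.996) and Edem2 (0.996), and those most like Gsdmd were Naip2 (0.999), Slc39a3 (0.997) and Wtap (0.995). Mlkl was most like Pank2 (0.992), Ick (0.991) and Cdon (0.991). Gsdmc2 was most like Fam198b (0.995), Guca2a (0.994) and Pla2g4c (0.994). Gsdmc4 was most like Foxred2 (0.989), Actr1b (0.989) and Apol9a (0.987). Guca2a had 4210, 2537 and 4594 normalised reads in the wild type-labelled libraries and 3959, 21870 and 8302 in those labelled Otud1-/-, the same library order as Gsdmc2 in the libraries labelled Otud1-/-.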

How the data were processed

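Total RNA of 6 libraries was extracted with Trizol and prepared by standard Illumina methods, per the labels' protocols. The authors deposited 1 table of normalised signal per gene; mm10 is the build that the submitters' processing notes name. The aligner, counter, strand setting and annotation were not given in the sources used here. Every deposited signal was a whole multiple of 1 step per library (100% of values within 0.001 of a read), and the steps were the reciprocals of median-of-ratios size factors computed from the recovered reads. Without molecular identifiers, counting intervals give only a lower limit of the technical error.

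Of the gene IDs, 21317 matched GENCODE vM21 (GRCm38) without their version and 57 did not. Genes with at least 1 normalised read in at least 3 libraries were tested with limma 3.58.1 (R 4.3.3, trend and robust) on log2(value + 1), a scale that understates changes of genes with few reads, two-sided, with Benjamini-Hochberg adjustment over 21281 genes and a threshold of 0.05. Samples were grouped by titles and genotype labels. Alternatives were other filters, pseudocounts and scalings, sample weights, a replicate block, edgeR 4.0.16 and DESeq2 1.42.0 on the recovered reads, and omission of libraries; scripts were tested on simulated data. Levels per kilobase used the union of a gene's GENCODE exons, and sequences were read from GRCm38.

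The members and lists were chosen with earlier results of these data known. Named were the 9 members, Otud1, every called gene or up to 3 genes with the smallest p per pathway list, at most 2 markers per cell type list, and the 3 genes most correlated with each of 5 members. Tnf, Zbp1, Cflar and Gsdme, and the ratios to other genes and to marker lists, were added after values were seen. 1 gene that this rule names is not reported here.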

Additional observations from a re-analysis of the deposited data

How the results depend on the processing

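Ripk3 kept its direction in all 20 alternative settings (log2 change -1.38 to -0.72) and its call in 15; the call ended without trend and robust (adjusted p = 0.154), with the replicate block (0.0719) and without each library labelled wild type. The Gsdmc cluster sum was called in none of 20 (0.21 to 1.37). Genes called numbered 202, and 122 with a filter at a mean of 5, 118 with a pseudocount of 0.1, 413 with scaling to total reads, 3519 with scaling to the epithelium list, 564 with sample weights, 62 with edgeR, 1412 with DESeq2, 394 without both libraries numbered 1, 10 to 340 without 1 library, and 0 by limma without trend and robust, where 3499 had an unadjusted p under 0.05. The share of lower calls was 70.3%, and 24.9%, 3.15%, 60.1% and 52.6% with total reads, the epithelium list, quantile normalisation and DESeq2. Members called were 1, and 2 with the epithelium list, with sample weights, without both libraries numbered 1 and at an adjusted p under 0.1, 3 with DESeq2, 0 without trend and robust, and 0 to 3 without 1 library. The replicate block called 18 genes and 0 members. Same-numbered libraries did not deviate together from their group means (r = -0.264, -0.1 and -0.0877). Deviations among 3 libraries of a group are tied to each other, so these values do not settle whether the numbers mark pairs. Otud1 passed the threshold with the epithelium list (1.89), sample weights (1.59), DESeq2 (1.29) and without both libraries numbered 1 (1.89). Signs turned, for a cause that was not tested, for Gsdmc with a pseudocount of 0.1 (-0.29) and between -1.07 and 1.48 without 1 library, for Gsdmc4 between -0.072 and 0.93 without 1 library, and for Ripk1 with total reads (0.0109, median of all genes 0.22). The epithelium list moved the median of all genes to 0.52, and values turned positive but stayed below that median for Ripk1 (0.32), Mlkl (0.15), Casp8 (0.0251), Chmp2b (0.11), Vps4b (0.21), Tlr3 (0.20), Bak1 (0.049), Casp9 (0.22), Ikbke (0.11), Birc3 (0.0162) and Cyld (0.25). Adding the pseudogene Gsdmcl2 to the cluster sum, chosen after seeing the data, gave 0.72. Depth limits only Gsdmc among the members, with 0 to 33 reads per library.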
